A study of Mus musculus with 28 samples.

Results

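Promoter contacts of a mouse Pre-B cell line before induction (0h) were compared with those of the same cells 48h into their trans-differentiation to macrophages. A contact was a pair of HindIII restriction fragments in the interaction list of a time point, at least 1 of them a bait fragment captured for a promoter, and each unordered pair was counted a single time. The 0h list held 138769 pairs and the 48h list 144072, so that the pairs described numbered 205275 of the 273644 in the lists of all 4 time points (0h, 1h, 12h and 48h). Presence was the only property compared between times, since the number that accompanied each pair was the CHiCAGO score (a measure of signal over background) at 0h and a whole number, taken as read pairs, at 48h.

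Promoter capture Hi-C (PCHi-C, 2 biological replicates a time point, merged into 1 list) and RNA-seq (3 biological replicates a time point) were done in C10 cells. C10 is 1 Pre-B cell line, derived from HAFTL cells, that carries rat C/EBPα fused to the hormone-binding domain of the estrogen receptor, and uninduced cells carried the same transgene. The 48h cells had received 100 nM β-estradiol with 10 nM IL-3 and CSF-1, and the 0h cells none of these. The growth factors and the released C/EBPα were given together, so their parts cannot be told apart. With 1 list per time point there was no replicate error for any contact value, and intervals on shares of pairs cover counting error only.

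In PCHi-C, DNA ends that lie close together in the fixed nucleus are ligated, and ligation products that hold a promoter are fished out with probes, so that distal regions such as enhancers can be listed for each promoter. C/EBPα is a transcription factor that, with PU.1, opens the regulatory regions of myeloid genes, and its forced expression turns B cell precursors into macrophages. Promoters often reach several distal fragments at a time, and the set of fragments differs between cell types.

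The labels were checked against marker genes in TPM, the length-normalised transcript share that RSEM gives. The summed level of 14 Pre-B cell markers fell from between 314 and 355 TPM in the 0h libraries to between 30.7 and 42.9 TPM at 48h, and that of 12 macrophage markers went from between 6.97 and 8.28 TPM to between 374 and 521 TPM. At 48h, 3 of the Pre-B markers were at 0 in every library. Markers of T cells, erythroid cells and fibroblasts summed to at most 0.11 TPM in any of these 6 libraries, and those of neutrophils to between 1 and 2.85 TPM at 48h. In bulk samples like these, fewer cells that use a gene and less of its RNA per cell cannot be told apart. A ribosomal RNA pair, CT010467.1 and AY036118, took 70.3% to 82.9% of all TPM, and the third 48h library had 94692 TPM outside the 20 most abundant genes, against 58343 and 65622 TPM in the other two, so RNA calls are given both as deposited and after median-of-ratios scaling of the libraries.

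The promoters that carry the clearest pattern are shown here, as RefSeq promoter windows of GRCm38.p6 (mm10) that run from 250 bases before to 50 bases after the transcription start, 5′ to 3′ on the strand of the gene. The matrix metalloproteinase genes Mmp12 (chr9:7344147-7344446, plus strand), Mmp8 (chr9:7558179-7558478, plus), Mmp13 (chr9:7272264-7272563, plus) and Mmp1a (chr9:7463891-7464190, plus) sit in 1 gene cluster whose baits gained pairs. Btg1 (chr10:96616751-96617050, plus) stands for a long-range gain and Suz12 (chr11:79992856-79993155, plus) for a promoter whose pairs were all gone at 48h. Capitals mark matches on either strand to GAGGAAGT (the PU.1 motif), TTGCNNAA (a relaxed C/EBP motif), TGANTCA (the AP-1 motif) or CAGCTG (an E-box), and a match is a description of letters only.
Mmp12 promoter: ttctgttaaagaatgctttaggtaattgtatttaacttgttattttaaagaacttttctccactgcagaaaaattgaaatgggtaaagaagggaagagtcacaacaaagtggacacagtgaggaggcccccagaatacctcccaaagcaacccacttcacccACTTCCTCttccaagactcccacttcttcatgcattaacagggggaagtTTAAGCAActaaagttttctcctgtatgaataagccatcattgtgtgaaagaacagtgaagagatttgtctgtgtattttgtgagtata
Mmp8 promoter: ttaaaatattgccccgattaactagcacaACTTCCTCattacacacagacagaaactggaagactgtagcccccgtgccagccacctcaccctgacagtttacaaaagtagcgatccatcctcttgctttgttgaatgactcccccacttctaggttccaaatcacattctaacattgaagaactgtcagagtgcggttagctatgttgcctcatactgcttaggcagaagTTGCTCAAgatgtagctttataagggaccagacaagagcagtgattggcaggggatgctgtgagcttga
Mmp13 promoter: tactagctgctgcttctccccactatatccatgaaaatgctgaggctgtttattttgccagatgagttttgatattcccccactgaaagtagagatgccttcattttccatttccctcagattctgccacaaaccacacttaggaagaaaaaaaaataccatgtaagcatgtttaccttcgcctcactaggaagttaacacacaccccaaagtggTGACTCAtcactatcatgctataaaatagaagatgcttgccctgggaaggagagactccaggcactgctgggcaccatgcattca
Mmp1a promoter: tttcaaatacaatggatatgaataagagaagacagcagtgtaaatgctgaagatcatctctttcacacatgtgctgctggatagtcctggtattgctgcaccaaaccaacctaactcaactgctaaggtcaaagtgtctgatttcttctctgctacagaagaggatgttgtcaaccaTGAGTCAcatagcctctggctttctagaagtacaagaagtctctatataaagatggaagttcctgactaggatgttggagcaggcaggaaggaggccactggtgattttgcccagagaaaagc
Btg1 promoter: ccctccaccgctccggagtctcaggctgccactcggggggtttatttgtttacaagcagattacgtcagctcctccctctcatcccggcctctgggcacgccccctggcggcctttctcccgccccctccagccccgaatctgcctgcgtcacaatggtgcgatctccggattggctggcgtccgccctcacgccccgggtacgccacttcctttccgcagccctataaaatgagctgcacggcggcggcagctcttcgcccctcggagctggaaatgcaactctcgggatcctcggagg
Suz12 promoter: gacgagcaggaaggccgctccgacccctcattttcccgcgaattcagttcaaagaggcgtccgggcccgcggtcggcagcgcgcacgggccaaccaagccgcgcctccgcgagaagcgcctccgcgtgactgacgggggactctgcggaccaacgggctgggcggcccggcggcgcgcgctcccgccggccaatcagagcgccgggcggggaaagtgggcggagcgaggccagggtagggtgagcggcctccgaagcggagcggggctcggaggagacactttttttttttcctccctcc
Mmp12 and Mmp8 each held 1 PU.1 match, on the minus strand as ACTTCCTC, and 1 relaxed C/EBP match. Mmp13 and Mmp1a each held 1 AP-1 match, and the Btg1 and Suz12 windows held none of the 4 motifs.

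Of the pairs listed at 0h, 77566 (55.9%, 95% Wilson interval 55.6 to 56.2) were also listed at 48h, and these kept pairs made up 53.8% (53.6 to 54.1) of the 48h list. The other 61203 pairs of the 0h list (44.1%) were lost and 66506 pairs (46.2% of the 48h list) were gained. The share of 0h pairs kept was 57.6% at 1h and 53.2% at 12h, and 0h pairs made up 58% of the 1h list and 56.1% of the 12h list. A pair near the threshold of a list can drop out with little change of signal, and whether a pair was kept followed its 0h score closely. Pairs with a 0h score from 5 to 6 were kept at 48h in 35.4% of cases, those from 8 to 10 in 69.5%, those from 15 to 20 in 93.1%, and the 158 pairs at 50 or more in 99.4%. The same rise with score was seen at 1h (35.7% in the lowest and 94.3% in the highest class) and at 12h (32.8% and 96.2%). Lost pairs had a median 0h score of 6.05 and kept pairs one of 7.87, and 5.49% of the lost pairs had a 0h score of 10 or more, against 30% of the kept pairs. Gained pairs had a median of 13 read pairs at 48h and kept pairs one of 18.

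**Figure D1:**
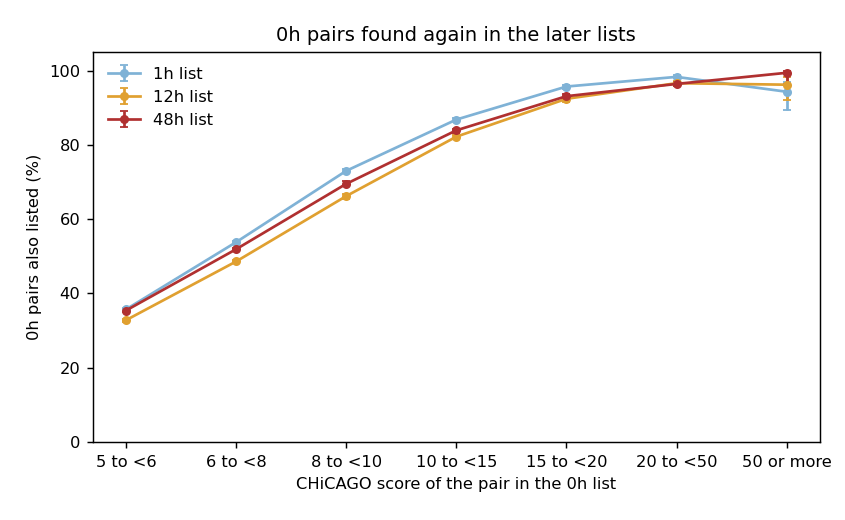
Share of 0h pairs (percent, y axis) that were also listed at 1h, 12h and 48h, by class of 0h CHiCAGO score (x axis), with lines for the 3 later times. Error bars are 95% Wilson intervals. The lines rise from 35.7%, 32.8% and 35.4% in the class from 5 to 6 (1h, 12h and 48h) to 95.7%, 92.4% and 93.1% in the class from 15 to 20.

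Lost pairs spanned longer distances than gained ones. The median distance was 169 kb for kept pairs (quartiles 90.7 and 279), 224 kb for lost pairs (115 and 372) and 186 kb for gained pairs (101 and 314). Pairs over 1 Mb made up 3.56% of the lost and 1.6% of the gained pairs, and 440 lost against 178 gained pairs joined different chromosomes. By distance class, the number of pairs at 48h over that at 0h was highest between 50 and 100 kb (1.19) and lowest beyond 1 Mb (0.61). Promoter to promoter pairs made up 16.9% of the kept, 15.9% of the lost and 10.9% of the gained pairs. Of the lost pairs 53.4% had been listed at neither 1h nor 12h, of the gained pairs 57.7%, and of the kept pairs 14.6%. For 56.8% of the lost and 56% of the gained pairs, the other list held a pair of the same bait with its partner within 10 kb. That nearby pair could be a kept one, so these shares do not count lost pairs replaced by neighbouring gained ones.

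Promoters differed widely in their net change. Of the 18175 baits in the 4 lists, 17792 of them holding an annotated transcription start site, 7869 had more pairs at 48h than at 0h, 7292 had fewer and 3014 had the same number. A bait was said to have gained contacts where it had at least 10 more pairs at 48h and at least 2 times as many (1 added to each count), and to have lost contacts where the reverse held. By this rule 723 baits gained (3.98%) and 639 lost (3.52%). Just inside the limit, 68 gained baits had a net of exactly 10 pairs and 69 lost baits one of -10, while 207 and 184 baits lay just outside it at 9 and -9 pairs. Another 408 baits had at least 10 more pairs and 478 at least 10 fewer without passing the ratio. The same rule gave 287 gains and 256 losses between 0h and 1h, and 400 gains and 480 losses between 0h and 12h. A loss needs 10 pairs at 0h, which 5420 baits had, and a gain needs 10 pairs at 48h, which 5475 baits had.

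In the median called bait the 1h and 12h counts lay between those of 0h and 48h. Baits that gained had median counts of 6, 8, 13 and 22 pairs over the 4 times, and those that lost had 23, 19, 12 and 7. The rule picks baits whose 0h and 48h counts lie far apart. Counts in between at 1h and 12h can follow from that choice, so no gradual course is read from them. No pair was listed at 0h for 47 of the gained baits, and none at 48h for 14 of the lost ones. Lost baits lay in regions crowded with promoters, with a median of 23 other baits within 500 kb, against 11 around gained baits and 14 around the others.

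Base composition moved with the net change. The median GC content of the bait fragments was 44.8% for gained, 50.1% for lost and 47.2% for the other baits. With the baits split into 4 equal groups by GC content, the 48h list held 1.25 times the pairs of the 0h list in the lowest group and 0.861 times in the highest, while the corresponding ratios of 1h to 0h were 0.912 and 1.05. The part of GC content in these values was not tested. With the 48h counts scaled within each GC group, an alternative chosen after seeing the data, 617 baits gained and 563 lost, of which 555 and 516 were gained and lost without the scaling too.

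The gains with the largest net number of pairs were spread over several chromosomes, but a run of them lay in the matrix metalloproteinase cluster of chromosome 9, whose genes encode secreted proteases that cut collagen, elastin and other parts of the extracellular matrix. In the list of each time (0h, 1h, 12h and 48h), Mmp27 had 32, 58, 67 and 101 pairs. Mmp13, a collagenase, had 27, 56, 65 and 89 pairs, and Mmp1a had 9, 19, 67 and 69. All 3 had more pairs at 1h than at 0h, and Mmp1a was near its 48h number at 12h. The bait of Mmp12 (chr9:7341455-7345182), the elastase of macrophages, went through 14, 21, 72 and 63 pairs and that of Mmp8, a collagenase of myeloid cells, through 21, 35, 57 and 63. Within the 1 Mb that holds the cluster, 7 of 16 baits gained and 1, that of Birc2, lost. The summed pairs of the baits in this window were 296, 395, 542 and 627 in the order of the times. Pairs that joined baits of 10 Mmp genes with each other numbered 8, 14, 16 and 17.

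RNA from the cluster rose at some of these baits and stayed at or near 0 at others. Mmp12 RNA was listed at 0, 0 and 0.02 TPM in the 0h libraries and at 490.23, 574.97 and 409.2 TPM at 48h. Mmp13 RNA was at 0, 0 and 0.02 TPM and then at 100.24, 110.28 and 90.19 TPM. Mmp8 RNA was at 0 in each 0h library and at 36.18, 43.29 and 28.19 TPM at 48h. For all 3 genes the 48h libraries lay far above those of 0h, and limma called each higher (adjusted p 2.75e-11 for Mmp12, 2.22e-10 for Mmp13 and 2.22e-10 for Mmp8). No fold is given for them, since the 0h libraries were at or next to 0. Mmp27, with the most pairs of the cluster, reached only 0.07, 0.11 and 0.12 TPM at 48h and Mmp1a 0.06, 0.05 and 0.03 TPM, both under the filter of a mean of 0.1 TPM over the 12 libraries, and so they were not tested.

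The partners of the Mmp12 bait show what the gain consisted of. Of its pairs 11 were kept, 3 lost and 52 gained, 31 of the gained partners lying upstream and 21 downstream, at a median distance of 125 kb. Promoter partners that were gained were those of Mmp13, Mmp1a, Mmp10 and the bait shared by Dcun1d5 and Dync2h1, beside the kept pairs with Mmp8 and Mmp27. The Mmp8 bait kept 19 pairs and gained 44, among them pairs with Mmp1a, Mmp27, Tmem123 and Birc2.

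**Figure D2:**
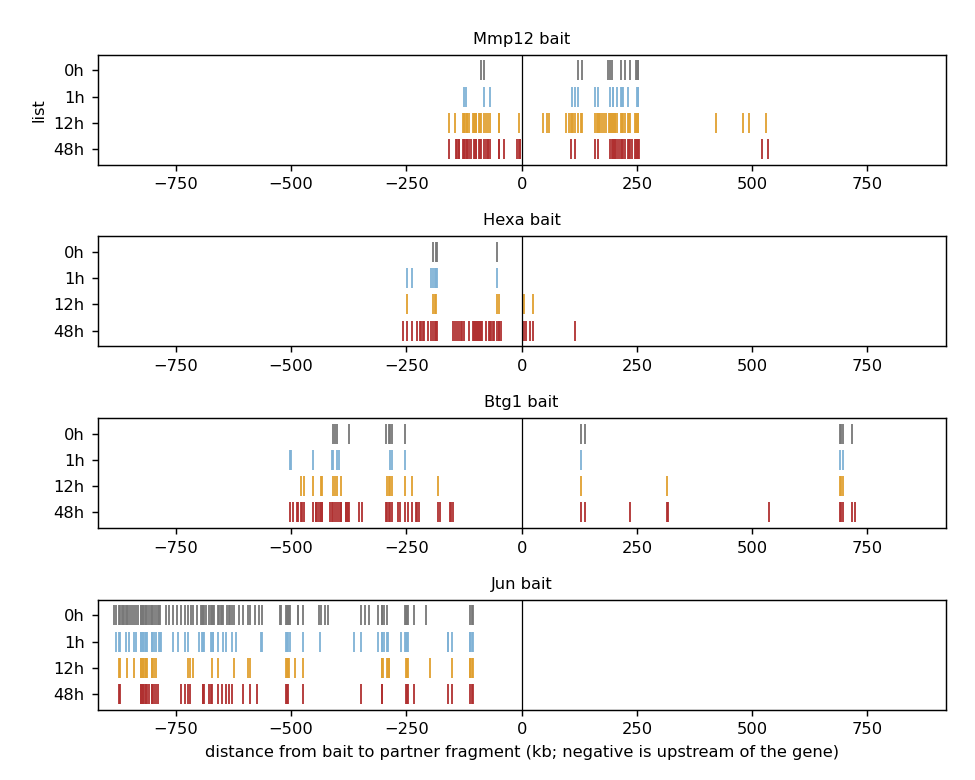
Position of each listed partner fragment relative to its bait (x axis, kb, negative upstream on the strand of the gene) for the baits of Mmp12, Hexa, Btg1 and Jun, with 1 row of marks for each list. Mmp12 fills in on both sides of the bait (31 gained partners upstream and 21 downstream), Hexa and Btg1 mainly on the upstream side, and the upstream marks of Jun thin out, with 58 of its 0h pairs lost.

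Outside the Mmp cluster the largest gains included genes with quite different RNA changes. Fndc3a, which encodes a membrane protein with fibronectin type III domains, had 18, 28, 40 and 75 pairs over the 4 times. Its RNA was at 2.35, 3.51 and 3.11 TPM at 0h and at 20.5, 23.44 and 21.39 TPM at 48h, which did not overlap and gave a log2 fold change of 2.84 (SE 0.24, limma adjusted p 1.97e-06). Rapgef2, an exchange factor for the small GTPase Rap, had 19, 19, 45 and 78 pairs, and its RNA rose from 0.27, 0.54 and 0.41 TPM to 1.26, 1.27 and 1.78 TPM (log2 fold change 1.62, SE 0.28, adjusted p 0.000535). Mcmdc2 had 36, 40, 54 and 111 pairs, and its RNA, at 1.51, 1.91 and 0.91 TPM at 0h and 3.61, 3.22 and 2.86 TPM at 48h, was also called higher (1.16, SE 0.29, adjusted p 0.0064). Without 0h replicate 3 the fold change of Mcmdc2 was 0.88 and no longer called, and with a pseudocount of 1 neither Mcmdc2 (0.81) nor Rapgef2 (0.79) passed the fold limit.

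For other large gains the RNA of the 0h and 48h libraries overlapped. Pdcd6ip, which encodes the ALIX protein of membrane budding, went from 6 to 62 pairs, with 56 gained and none lost, all the gained partners upstream. Its RNA was at 8.91, 8.27 and 5.18 TPM at 0h and 9.16, 12.8 and 7.9 TPM at 48h (log2 fold change 0.42, SE 0.26, adjusted p 0.221). Plscr4, a phospholipid scramblase family member, had 17 pairs at 0h and 73 at 48h with RNA between 0.61 and 1.02 TPM at 0h and between 0.97 and 1.12 TPM at 48h. Fggy, a carbohydrate kinase gene, had 37 and 98 pairs with RNA that overlapped too (1.7, 1.31 and 0.95 TPM against 2.86, 1.95 and 1.1 TPM). The bait shared by 1110019D14Rik and 2610001J05Rik went from 17 pairs at each of 0h and 12h to 77 at 48h, and neither gene was called.

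The baits with the 2 largest gains held the small RNA genes Gm25004 on chromosome 4 (43 to 126 pairs) and Gm22429 on chromosome 16 (35 to 114 pairs). Gm25059 on chromosome 9 (19 to 85 pairs) was of the same kind, and all 3 were at 0 TPM in the 0h and 48h libraries. They are annotated as an snRNA (Gm25004) and as snoRNAs. Gm4795 on chromosome 10 went from 47 to 111 pairs, losing none, with RNA at 0.06 TPM or less. Gm25004 and Fggy lie close to each other, and both kept their pair with the Jun bait.

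**Figure D3:**
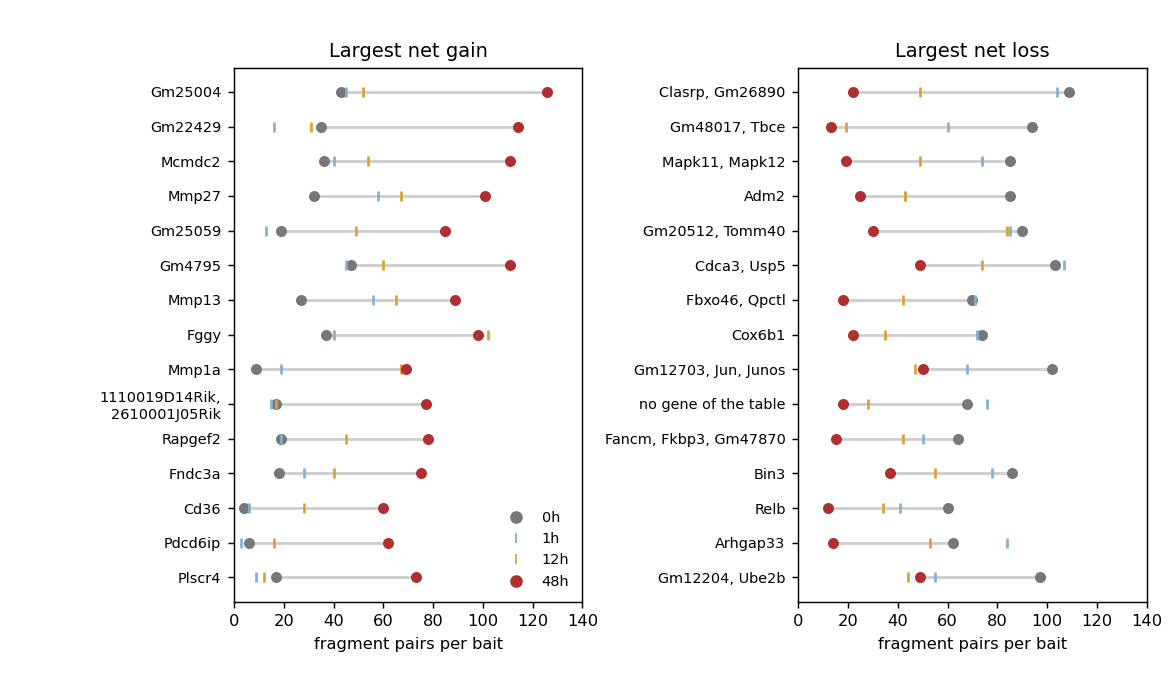
Fragment pairs per bait (x axis, number) for the 15 baits with the largest net gain (left) and the 15 with the largest net loss (right), named by their genes, with dots for 0h and 48h joined by a line and bars for 1h and 12h. The gains run up to 126 pairs (Gm25004) and the losses down from 109 pairs (Clasrp and Gm26890) to 22.

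Macrophage genes lay at gained baits more often than at lost ones. Of 39 genes of macrophage identity, chosen with earlier results known, 34 had a bait, 8 of them on a gained bait (23.5%, against 3.98% of all baits) and 1, Cd68, on a lost one (2.94%, against 3.52%). Their summed pairs were 250 at 0h and 492 at 48h, but the median net was 2, and the baits of Cd36, Mmp12, Mmp8 and Clec7a made up most of the rise. In RNA, 28 of the 32 tested were higher and none lower (29 and none after scaling), against 13.5% higher and 23.1% lower among all 16415 genes tested (21.5% and 15.8% after scaling), and the list had a median log2 fold change of 5.53 beside -0.18 over all genes (0.17 after scaling). Members at 0 TPM at 0h, such as Cd14 and Itgax, passed the filter only through later libraries, which partly fixed the share called higher. Cd36, a scavenger receptor for oxidised lipoproteins, had 4, 6, 28 and 60 pairs over the 4 times. Its gained partners reached up to 901 kb, 45 of 56 upstream, and the bait (chr5:17888131-17889282) holds one of the annotated upstream starts of the gene. Cd36 RNA was at 0.99, 0.56 and 0.41 TPM at 0h and 13.72, 15.71 and 11.56 TPM at 48h, with no overlap (log2 fold change 4.25, SE 0.48, limma adjusted p 2.21e-05). At 12h, with 28 pairs listed, the mean of its RNA was 0.473 TPM.

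Other macrophage list members at gained baits were Tlr2, Clec7a, Cd14 and Itgax. Tlr2, the receptor for bacterial lipopeptides, had 2 pairs at 0h and 15 at both 12h and 48h, with all 14 gained partners upstream. Its RNA went from 0.26, 0.28 and 0.36 TPM to 21.41, 22.56 and 23.63 TPM (log2 fold change 5.83, SE 0.17, adjusted p 8.44e-10). Clec7a, the β-glucan receptor Dectin-1, rose from 26 to 60 pairs and from 0.95, 1.07 and 0.38 TPM to 37.54, 39.7 and 33.53 TPM (5.46, SE 0.29, adjusted p 5.84e-08). Cd14, the lipopolysaccharide co-receptor, had 5 pairs at 0h and 17 at 48h, and its RNA was at 0 in every 0h library and at 36.18, 42.18 and 61.6 TPM at 48h. Itgax, an integrin of myeloid cells, had 2 and 20 pairs, and its RNA was at 0 at 0h and at 1.48, 0.52 and 0.92 TPM at 48h.

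Contacts did not rise at every macrophage gene. The baits of Csf1r (10 pairs at 0h and 9 at 48h), Fcgr1 (19 and 13), Cybb (1 and 0) and Tyrobp (9 and 4) met neither rule although limma called their RNA higher. The bait of Itgam, whose RNA was also called higher, rose from 15 to 25 pairs without passing the ratio. Tlr4, the lipopolysaccharide receptor, had 19 pairs at 0h and 11 at 48h and met neither rule, while its mean RNA went from 2.6 to 9.12 TPM (log2 fold change 1.77, SE 0.34, limma adjusted p 0.00134). In all, 14 of the 34 list members with a bait had fewer pairs at 48h than at 0h, near the share over all baits (7292 of 18175). At Cd68, a lysosomal glycoprotein of macrophages, pairs went from 13 to 2 while its mean RNA went from 2.35 to 18.2 TPM (log2 fold change 2.91, SE 0.26, limma adjusted p 3.88e-06). The lost Cd68 bait also holds starts of Eif4a1 and Gm24029, so the loss cannot be assigned to Cd68 alone.

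CC chemokines, which draw monocytes and other leukocytes, and their receptors had 20 list members with a bait, on 19 baits, since Ccl7 and Ccl11 share 1. Of these baits 4 gained (21.1%, against 3.98% of all baits) and none lost, and they had 141 pairs at 0h and 276 at 48h. All 10 members tested, of 21 in the list, were higher in RNA (100%, against 13.5% of all genes tested), with the same count after scaling (against 21.5%). Members at or near 0 at 0h, such as Ccl2 and Ccl7, passed the filter only through later libraries, and silent members were not tested. The filter thus partly fixed this share. Ccl2, the monocyte attractant, had no pair at 0h and 10, 11 and 13 pairs at 1h, 12h and 48h, 10 of the 13 downstream at a median of 135 kb. Its RNA was at 0, 0 and 0.07 TPM at 0h and 44.77, 51.53 and 61.73 TPM at 48h (limma adjusted p 2.22e-10). Ccl3, which attracts monocytes and T cells, went from 19 to 54 pairs and from 2.52, 0.7 and 1.57 TPM to 64.4, 70.16 and 51.81 TPM (log2 fold change 5.35, SE 0.34, adjusted p 2.33e-07).

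Neighbouring chemokine promoters met each other at 48h. The bait shared by Ccl7 and Ccl11 had 1, 8, 9 and 16 pairs and gained the baits of Ccl12 and Ccl8 as partners. The Ccl12 bait had 0, 0, 2 and 15 pairs and gained Ccl8 and the shared Ccl7 and Ccl11 bait. Pairs among the 5 baits of the group from Ccl2 to Ccl1 numbered 0, 0, 1 and 3. RNA of these genes stayed low, at 0.5, 1.4 and 0.56 TPM for Ccl7 at 48h after 0 at 0h (adjusted p 0.000254), at 0.27, 0.2 and 0 TPM for Ccl12, and at 0 in all 6 libraries for Ccl11. Among the baits from Ccl3 to Ccl9 the pairs were 3, 4, 5 and 5.

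Most lysosomal genes rose in RNA. Of 22 with a bait 3 gained (Ctsc, Ctsk and Hexa, 3 of 23 baits or 13% against 3.98% of all) and none lost, while 16 of 19 tested were higher (84.2%, against 13.5% of all tested) and none lower. Hexa, a subunit of β-hexosaminidase, had 4, 8, 8 and 47 pairs, so that the gain was listed after 12h, and 38 of its 43 gained partners lay upstream, Adpgk and Pkm among them. Its bait also holds a start of Tmem202. Hexa RNA was at 4.2, 3.59 and 3.59 TPM at 0h and 9.09, 11.57 and 12.13 TPM at 48h (log2 fold change 1.5, SE 0.18, adjusted p 3.19e-05). Ctsc, the protease that activates granule serine proteases, had 12, 10, 20 and 31 pairs, all 20 gained partners upstream. Its RNA rose from 8.47, 7.97 and 9.54 TPM to 329.49, 390.55 and 356.1 TPM (5.36, SE 0.14, adjusted p 3.41e-10). Ctsk, the collagen-cutting cathepsin of osteoclasts, went from 9 to 22 pairs with RNA at 0.08 TPM or less throughout.

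Btg1, an antiproliferative gene, was at the 1 gained bait of 11 in the C/EBP and BTG list (9.09%, against 3.98% of all baits), with 15, 13, 21 and 59 pairs. Of the 45 gained partners of its bait (chr10:96616247-96622273) 40 lay upstream, and the median distance of the 45 was 381 kb. Btg1 RNA was at 3.33, 1.89 and 2.45 TPM at 0h and 20.53, 23.66 and 34.08 TPM at 48h, with no overlap (log2 fold change 3.30, SE 0.30, limma adjusted p 3.56e-06). Cebpb, the C/EBPβ transcription factor of macrophages, was at the 1 lost bait of the same list (9.09%, against 3.52% of all baits), going from 18 to 8 pairs with 12 lost, 6 kept and 2 gained. Its RNA rose all the same, from 2.94, 2.72 and 2.45 TPM to 11.38, 11.05 and 26.73 TPM (2.43, SE 0.31, adjusted p 6.58e-05).

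Genes with the largest rise in RNA at gained baits were Mmp12, Il1rn, Ifi202b, Mmp13, Cd14 and Ccl2. Il1rn, the interleukin-1 receptor antagonist, had 3, 7, 13 and 16 pairs, and its RNA went from 0.08, 0 and 0.02 TPM to 135.86, 158.94 and 134.93 TPM. Ifi202b, an interferon-induced DNA sensor family member, had 14, 42, 27 and 45 pairs, and its RNA was at 0 at 0h and at 104.69, 125.98 and 75.74 TPM at 48h. Each had a limma adjusted p of 2.22e-10, and their 0h and 48h libraries were far apart.

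Gained contacts also occurred at genes whose RNA fell. Blm, the Bloom syndrome helicase of DNA repair, had 4, 10, 16 and 22 pairs, and its RNA went from 6.5, 5.12 and 3.96 TPM to 0.15, 0.2 and 0.25 TPM (log2 fold change -4.13, SE 0.27, limma adjusted p 3.23e-07). Ipo4, an importin that carries histones, rose from 23 to 49 pairs while its RNA fell from 6.62, 6.59 and 6.84 TPM to 0.4, 0.34 and 0.75 TPM (-3.57, SE 0.42, adjusted p 2.88e-05). Car12, a carbonic anhydrase, Banf1, a chromatin-binding protein of the nuclear envelope, Wdr73 and Exosc7, a subunit of the RNA exosome, were the other 4 of the 6 largest falls at gained baits, with log2 fold changes from -4.20 to -3.10. Each of the 6 was also called lower after scaling. Bank1, a B cell scaffold protein, was the gained member of the B-lineage list, with 4 pairs at 0h and 17 at 48h, and RNA of 0.86, 0.7 and 0.84 TPM at 0h against 0.32, 0.54 and 0.2 TPM at 48h (-1.05, SE 0.32, adjusted p 0.0182, not called after scaling). The call of Bank1 was also lost without 0h replicate 1 (-1.01) or without 48h replicate 3 (-0.79).

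Many of the lost baits lay in runs, the longest of them on chromosome 7. Between positions 19000001 and 20000000 of that chromosome 23 of 51 baits lost contacts and none gained, and their summed pairs went from 1306 at 0h through 1515 at 1h and 1060 at 12h to 560 at 48h. From 30000001 to 31000000 it was 15 of 52 baits, with 1534 pairs at 0h and 941 at 48h, and on chromosome 17 from 56000001 to 57000000 it was 14 of 34, with 497 and 154. Of 2077 windows of this size with a bait, 449 held a gained bait, 304 a lost one and 66 both.

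The bait with the largest loss was that of Clasrp, an SR-like splicing regulator, and Gm26890 (chr7:19597522-19605636), with 109, 104, 49 and 22 pairs, 88 of them lost. Clasrp RNA was at 3.74, 2.02 and 2.39 TPM at 0h and 0.87, 1.08 and 1.7 TPM at 48h (log2 fold change -1.10, SE 0.28, limma adjusted p 0.00736, not called after scaling). Without 0h replicate 1 the value was -0.85 and without 48h replicate 1 it was -0.90, both short of the fold limit. Tomm40, the pore of the mitochondrial outer membrane translocase, lay in the same window and had 90, 85, 84 and 30 pairs, so its loss came after 12h. Its RNA fell from 10.6, 11.92 and 12.19 TPM to 0.88, 1.31 and 2.11 TPM (-3.01, SE 0.31, adjusted p 1.08e-05). Relb, an NF-κB subunit, also lay there and went from 60 to 12 pairs with overlapping RNA (0.83, 0.82 and 0.41 TPM against 0.43, 0.95 and 0.85 TPM). Fbxo46 and Qpctl shared a bait that fell from 70 to 18 pairs, with overlapping RNA for both genes.

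Other large losses lay on chromosomes 6, 12 and 7. The bait shared by Cdca3, a cell division cycle gene, and Usp5, a deubiquitinase, had 103, 107, 74 and 49 pairs. Cdca3 RNA was at 6.33, 7.03 and 6.15 TPM at 0h and at 0, 0.12 and 0 TPM at 48h (log2 fold change -5.66, SE 0.36, limma adjusted p 2.63e-07), while Usp5 was not called (-0.81, SE 0.26, adjusted p 0.0259). The bait of Fancm, a helicase of the Fanconi anaemia pathway, and Fkbp3, a prolyl isomerase, had 64, 50, 42 and 15 pairs. Both genes fell, Fkbp3 from 18.67, 17.37 and 14.5 TPM to 1.42, 2.22 and 0.96 TPM (-3.44, SE 0.25, adjusted p 7.66e-07) and Fancm from 3.97, 4.23 and 2.83 TPM to 0.16, 0.18 and 0.51 TPM (-3.39, SE 0.32, adjusted p 5.85e-06). Arhgap33, a GTPase-activating protein, went from 62 to 14 pairs, and its RNA from 2.54, 2.3 and 2.25 TPM to 0.6, 0.19 and 0.43 TPM (-2.37, SE 0.28, adjusted p 3.39e-05).

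At several large losses the RNA libraries overlapped. Tbce, a tubulin folding cofactor, had 94, 60, 19 and 13 pairs, and its RNA was at 1.82, 3.03 and 2.63 TPM at 0h and 2.62, 2.27 and 1.99 TPM at 48h (log2 fold change -0.09, SE 0.27, adjusted p 0.82). The bait of the kinases Mapk11 and Mapk12 had 85, 74, 49 and 19 pairs with RNA of 1.15, 1.07 and 1.03 TPM against 1.11, 0.98 and 0.96 TPM for Mapk11. Bin3 had 86, 78, 55 and 37 pairs, and its RNA overlapped between the times as well. The direction of the Tbce and Mapk11 values turned positive under scaling (0.42 and 0.41). Mapk12, on the bait of Mapk11, had a log2 fold change of 1.14 and was not called. Over the libraries left out it ran from 0.83 to 1.64, and without 48h replicate 1 Mapk12 was called higher (1.64, limma adjusted p 0.0383). The bait of Ube2b and Gm12204 was the one of the 15 largest net losses that did not pass the ratio, with 97 pairs at 0h and 49 at 48h, and a bait with no annotated gene (chr4:144965317-144975424) fell from 68 to 18 pairs.

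Jun, the AP-1 subunit, lost contacts while its RNA rose. Its bait, shared with the antisense gene Junos and Gm12703, had 102, 68, 47 and 50 pairs, of which 58 were lost and 44 kept, with 6 gained by 48h and every partner upstream of the gene. Jun RNA was at 4.51, 4.94 and 4.63 TPM at 0h and 22.61, 27.86 and 32.03 TPM at 48h (log2 fold change 2.51, SE 0.17, limma adjusted p 3.31e-07). Reads of Jun and of Junos cannot be told apart where the genes overlap unless strand was used. Other genes at lost baits had higher RNA too. Stat2, which carries the type I interferon signal, fell from 26 to 5 pairs, and its RNA rose from 3.27, 2.45 and 3.08 TPM to 44.39, 53.11 and 64.54 TPM (4.15, SE 0.23, adjusted p 9.36e-08). Cd74, the invariant chain of MHC class II, fell from 21 to 10 pairs, and its RNA went from 0, 0.52 and 0.38 TPM to 131.04, 158.53 and 168.32 TPM (8.94, SE 0.52, adjusted p 1.21e-07). Isg15, Aif1, Oasl1 and Apobec1 were the other 4 of the 6 largest rises at lost baits, with log2 fold changes from 4.11 to 6.25.

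**Figure D4:**
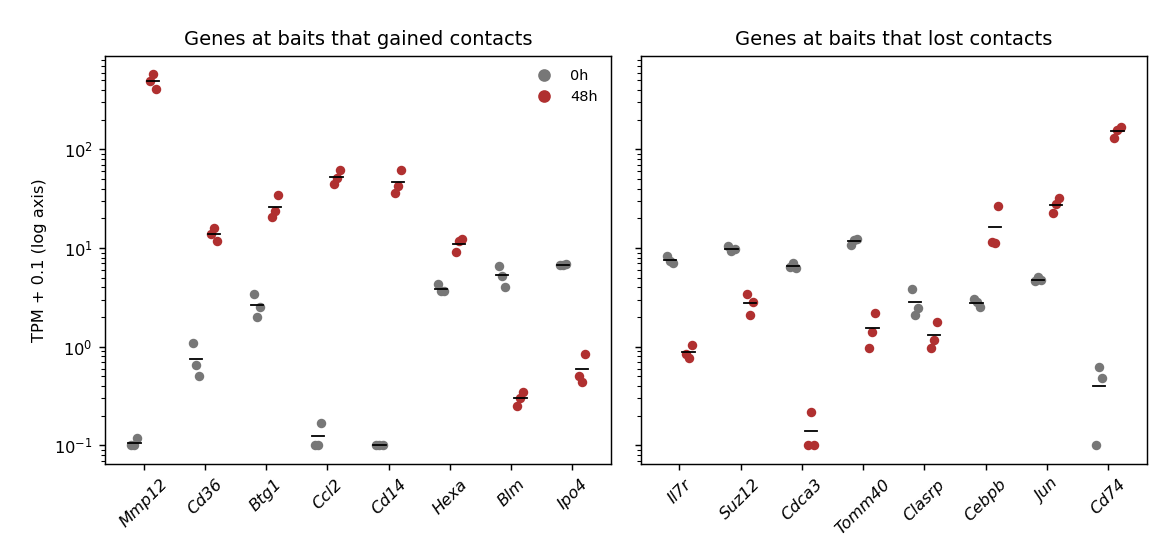
RNA level (TPM + 0.1, log axis) of 8 named genes at gained baits (left) and 8 at lost baits (right), with 1 point for each of the 3 libraries at 0h and at 48h and a line at their mean. The points of the 2 times do not overlap for any of the 16 genes, and they lie higher at 48h for Mmp12, Cd36, Btg1, Ccl2, Cd14, Hexa, Cebpb, Jun and Cd74 and lower for Blm, Ipo4, Il7r, Suz12, Cdca3, Tomm40 and Clasrp.

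B-lineage genes mostly fell in RNA. Of 35 genes of the list 30 of 34 tested were lower (88.2%, against 23.1% of all tested) and 1 higher (28 and 1 after scaling). Of their 35 baits 2 lost (Il7r and Blnk, 5.71% against 3.52% of all baits) and 1 gained (Bank1, 2.86% against 3.98%). These baits had 700 pairs at 0h, 563 at 12h and 655 at 48h. Il7r, the interleukin-7 receptor that B cell precursors need, had 29, 9, 6 and 13 pairs, so its loss was there at 1h. Its RNA was at 8.13, 7.32 and 7 TPM at 0h and 0.74, 0.67 and 0.93 TPM at 48h (log2 fold change -3.12, SE 0.40, limma adjusted p 5.95e-05). Blnk, the adaptor of B cell receptor signalling, had 19, 9, 4 and 4 pairs, and its RNA, at 6.07, 6.98 and 6.87 TPM against 3.07, 4.21 and 3.55 TPM, did not pass the fold limit (-0.87, SE 0.21, adjusted p 0.00496). Pax5, the master regulator of B cell identity, met neither rule, with 37, 15, 14 and 27 pairs, while its RNA fell from 17.02, 17.5 and 16.85 TPM to 2.83, 3.85 and 4.5 TPM (-2.19, SE 0.18, adjusted p 1.79e-06).

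Clcf1, Maf1 and Ssbp1 are among the other genes for which the study text discusses contacts. Clcf1, a cytokine of the IL-6 family, had 47, 40, 22 and 17 pairs over its 2 baits and counted as lost. Its RNA overlapped between the times (3.45, 1.4 and 2.33 TPM at 0h, 0.5, 0.69 and 1.59 TPM at 48h), and its call of lower (log2 fold change -1.34, SE 0.44, limma adjusted p 0.0283) did not hold after scaling, nor without 0h replicate 1 (-1.04), 0h replicate 3 (-1.31), 48h replicate 1 (-1.02) or 48h replicate 2 (-1.22). Maf1, a repressor of RNA polymerase III, had 3, 7, 6 and 8 pairs and met neither rule. Its RNA was at 11.51, 11.27 and 6.82 TPM at 0h and 2.91, 4.22 and 5.97 TPM at 48h (-1.18, SE 0.29, adjusted p 0.00603), called lower as deposited but not after scaling, nor without 48h replicate 1 (-0.92). Ssbp1, the mitochondrial single-stranded DNA binding protein, was added after its values were seen, and its bait gained, with 8, 9, 16 and 27 pairs. Its RNA was at 7.43, 4.51 and 2.34 TPM at 0h and 1.58, 0.97 and 1.6 TPM at 48h, without overlap, and was called lower (-1.60, SE 0.37, adjusted p 0.004), also after scaling.

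Among chromatin regulators, Suz12, a core subunit of Polycomb repressive complex 2, was at the 1 lost bait of 25 in the Polycomb list (4%, near the 3.52% of all baits). Its bait (chr11:79992288-79994030) had 13, 4, 1 and 0 pairs, and the lost partners lay at a median of 388 kb. Suz12 RNA was at 10.4, 9.16 and 9.69 TPM at 0h and 3.32, 2.02 and 2.73 TPM at 48h, with no overlap (log2 fold change -1.85, SE 0.20, limma adjusted p 1.76e-05). The other 23 Polycomb genes with a bait met neither rule, and 9 of 25 in the list were lower (36%, against 23.1% of all genes tested) and 3 higher (12%, against 13.5%). Among the 9331 genes with a mean of at least 1 TPM, 33.6% were lower and 13.9% higher, so the Polycomb shares lay near these. After scaling 7 Polycomb genes were lower (28%, against 15.8% of all genes tested) and 4 higher (16%, against 21.5%). In the list of cohesin and CTCF genes, Wapl, which unloads cohesin, was at the 1 lost bait of 13 (7.69%, against 3.52% of all baits). Wapl went from 19 to 7 pairs with overlapping RNA (5.52, 5.64 and 4.75 TPM against 4.01, 6.69 and 5.09 TPM). In this list 7 of 14 genes were lower and none higher, against 23.1% lower of all genes tested. Of genes with a mean of at least 1 TPM 33.6% were lower. After scaling 4 genes of the list were lower and none higher (28.6% against 15.8% lower).

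Genes of DNA replication and mitosis fell in RNA throughout. All 34 were lower (100%, against 23.1% of all tested, and 33 after scaling, 97.1% against 15.8%), with a median log2 fold change of -4.72 beside -0.18 over all genes. Of these genes 25 of 33 with a bait had fewer pairs at 48h, 5 more and 3 the same number, for sums of 498 and 360. Of all 18175 baits 7292 had fewer pairs, 7869 more and 3014 the same number. E2f2, an E2F transcription factor, was at the 1 lost bait of 34 (2.94%, against 3.52% of all baits), going from 14 to 3 pairs with RNA of 2.01, 1.65 and 1.86 TPM at 0h and 0.04 TPM or less at 48h. Among all lost baits the 6 largest RNA falls were those of Gm44394, Hist1h2ae, Cdca3, Txnrd3, Ncapd2 and Pole. Ncapd2, a condensin subunit, fell from 14.76, 13.45 and 12.33 TPM to 0.16, 0.7 and 0.61 TPM (log2 fold change -4.68, SE 0.36, adjusted p 1.06e-06), with 46 pairs at 0h and 21 at 48h. Pole, the catalytic subunit of DNA polymerase ε, fell from 4.65, 4.47 and 4.34 TPM to 0.04, 0.18 and 0.07 TPM (-4.61, SE 0.25, adjusted p 8.01e-08), with 28 and 4 pairs. Hist1h2ae has near-identical copies in its gene cluster, and Gm44394 shares its bait, so reads between such copies may be split and their values are uncertain.

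Set beside the RNA, the direction of contact change and that of RNA change went together in part. Of the 23193 genes of the RNA table with a start in a bait, 878 lay at a gained bait (3.79%) and 962 at a lost one (4.15%). Of 475 tested genes at gained baits 138 were higher (29.1%) and 77 lower (16.2%), with a median log2 fold change of 0.26. At lost baits 58 of 704 were higher (8.24%) and 250 lower (35.5%), with a median of -0.61, and at the 10638 tested genes of other baits 11% were higher and 28.7% lower, with a median of -0.41. Among genes of other baits with at least 10 pairs at 0h, which could have met the loss rule, 10.5% were higher and 30.9% lower. After scaling, the medians were 0.74 at gained and -0.13 at lost baits, and 38.7% and 14.2% of genes were higher and 10.5% and 24.1% lower.

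The relation was broadly graded over the net number of pairs. From genes whose baits had lost at least 21 pairs on balance to genes whose baits had won at least 20, the share called higher went from 7.62% (302 genes) to 33.7% (249 genes), and the share called lower from 40.4% to 11.6%. At a net of 0, 9.79% of 1338 genes were higher and 28.3% lower. Seen from the RNA, 54.5% of the genes called higher had more pairs at 48h and 35.9% fewer, whereas 32.4% of the genes called lower had more and 56.4% fewer. Genes of 1 bait and neighbouring baits share pairs, so genes are not independent and no test was made across them. Within each of the 4 groups of bait GC content the order was the same, with 32.9%, 30.7%, 26.9% and 21.3% of genes at gained baits called higher from the lowest to the highest group, against 12.5%, 10.3%, 10.7% and 11.1% at baits of neither class.

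**Figure D5:**
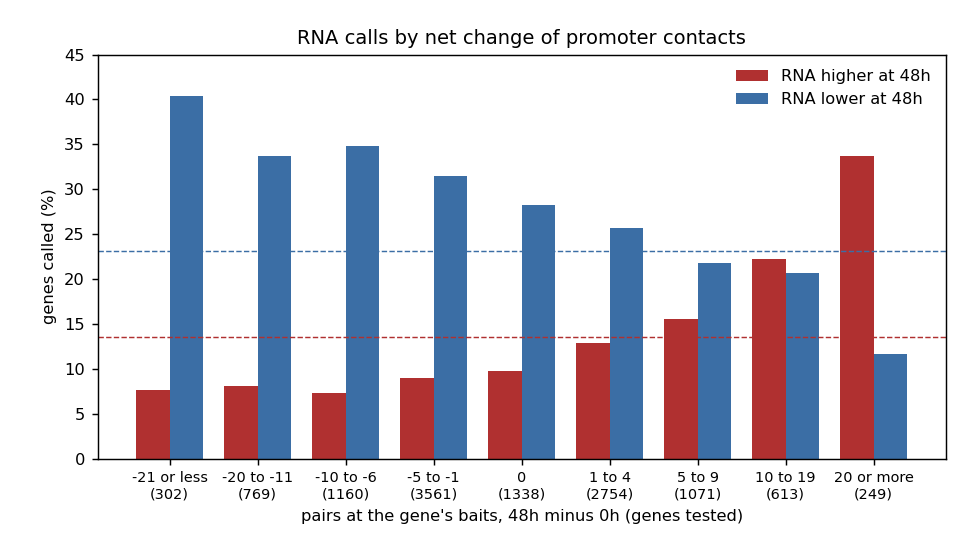
Share of tested genes (percent, y axis) called higher or lower in RNA at 48h against 0h, by class of net change in pairs of their bait (x axis, 48h minus 0h, genes tested in parentheses). Dashed lines mark the 13.5% higher and 23.1% lower of all genes tested. The bars hold only the 11817 tested genes at a bait, of which 11.5% were higher and 28.6% lower. The share called higher climbs from 7.62% to 33.7% and the share called lower drops from 40.4% to 11.6% from the class of largest loss to that of largest gain.

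Many called baits had no RNA value to set beside them. Of 723 gained baits 413 held at least 1 tested gene, 289 held genes of which none was tested because their RNA was under the filter, and 21 held no gene. Of the lost baits 529 held a tested gene, 102 untested genes and 8 none. Baits with untested genes alone had 40228 pairs at 0h and 47906 at 48h, those with no gene 2569 and 2885, and those with a tested gene 118781 and 113601.

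Promoter motifs were counted in the RefSeq windows, on both strands, for the 528 of 878 genes at gained baits (634 windows) and the 610 of 962 at lost baits (783 windows) that matched the table by symbol. Windows of genes at gained baits with higher RNA (146 windows) held the PU.1 motif GAGGAAGT in 8.22% and the AP-1 motif TGANTCA in 13.7%, against 3.2% and 7.81% of all 32851 windows. Windows of genes at lost baits with higher RNA (61 windows) held the PU.1 motif in 8.2% and the AP-1 motif in 9.84%. Among genes with lower RNA the AP-1 share was 0.847% at lost and 4.05% at gained baits, and that of the E-box CAGCTG was 8.05% and 1.35%, against 16.3% of all windows for the E-box. The relaxed C/EBP motif TTGCNNAA, chosen after the palindrome TTGCGCAA was found in 0.183% of windows, was in 6.85% of those of gained and higher genes, in 18% of those of lost and higher genes and in 10.8% of all. GC content differed as well, with a median of 53.8% in the windows of gained and higher genes, 60% in those of lost and lower genes and 52.7% in all windows, and its part in these shares was not tested. In the distal partner fragments the PU.1 motif had 67.5 matches per Mb in partners of kept, 65.9 of lost and 66.7 of gained pairs, and the AP-1 motif had 318, 312 and 324. The rare C/EBP palindrome had 0.879, 0.805 and 1.12 matches per Mb.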

How the data were processed

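Per the labels, promoter capture Hi-C and RNA-seq were made from C10 cells at 0h, 1h, 12h and 48h. The authors mapped PCHi-C reads to mm10, merged the 2 replicates of a time point and called interactions with CHiCAGO at a score of at least 5. The deposited 0h list gives that score, and the deposited lists of the later times give counts, which are assumed to be of read pairs as no unit is named. For the depth of the PCHi-C libraries the paper points to a supplementary table, and no depth was used here. The authors trimmed RNA reads with Trim Galore 0.6.2, aligned them with HISAT2 2.1.0 and deposited TPM from RSEM. A TPM value does not give the number of RNA reads behind it. The paper points to a supplementary table for RNA depth too, which was not used here.

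Pairs were counted once for each unordered pair, since 8517 of the 48h pairs stood in both directions. Baits were the fragments named as bait in any of the 4 lists, and genes were assigned to baits by transcription start sites of GENCODE M21. Every fragment (100%) began and ended at a HindIII site of the RefSeq genome GRCm38.p6, the same build. RNA was tested with limma 3.58.1 in R 4.3.3 on log2(TPM + 0.1) for genes with a mean of at least 0.1 TPM over the 12 libraries, with all 12 in 1 fit, a mean-variance trend and Benjamini-Hochberg adjustment over 16415 genes. Calls needed both a log2 fold change beyond 1 in size and an adjusted p below 0.05, and fold changes on this scale understate the change of low genes. The labels call the samples biological replicates of 1 cell line, so the tests cover the spread between cultures of that line. The differential contact test that uses read counts per replicate was not run, because the lists are merged. Genes named were those at the 15 baits with the largest net gain and loss, up to 6 members per gene list at gained or lost baits, 7 genes from the study text (Btg1, Ccl7, Ccl12, Suz12, Pax5, Clcf1 and Maf1, with Ssbp1 added after its values were seen), and the 6 largest RNA rises and falls among called genes of at least 1 TPM at gained and at lost baits. The members and lists were chosen with earlier results of these data known. The limma script was tested on simulated data. Alternatives covered partner tolerance, score limits, bait-to-bait pairs, list scaling, pseudocount, filters, library scaling, a replicate block and leaving out each library. No column of per-sample values was left unmapped.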

Additional observations from a re-analysis of the deposited data

How the results depend on the processing

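The share of 0h pairs also listed at 48h (55.9%) was 80.9% with partners allowed within 10 kb and 85.2% within 20 kb, 73.7% for pairs with a 0h score of at least 7 and 87.4% for at least 10, and 55.6% without bait-to-bait pairs. The share of 48h pairs found at 0h was 62.9% for pairs at or above the median value of the 48h list. With a net of at least 20 pairs 242 baits gained and 189 lost, and with a 0h score of at least 7 it was 2531 and 49, since that removes pairs from 1 list only. Under the other settings the counts stayed within 1.5 times, but the baits called were not all the same. Without bait-to-bait pairs 669 baits gained and 473 lost, and 589 and 388 of these were gained and lost in the main setting too. The count of genes called higher (2217) was 1105 with a pseudocount of 1, 1301 at a mean of at least 1 TPM, 3528 after median-of-ratios scaling and 1056 at a log2 fold change beyond 2, and that of genes called lower (3793) was 2344 with a pseudocount of 1 and 1648 beyond 2. At gained baits 43 genes were lower with a pseudocount of 1 and 50 after median-of-ratios scaling, and with the fold limit set at 2 on the log2 scale 85 were higher and 26 lower. At lost baits 165 were lower with a pseudocount of 1, 100 higher after median-of-ratios scaling, 30 higher and 109 lower beyond 2, and 37 higher with classes made without bait-to-bait pairs. The cause was not tested for these moves. In 21 of 21 settings genes at gained baits had the highest and those at lost baits the lowest share called higher, and the reverse order for lower.

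Leaving out each library in turn gave 1979 to 2193 genes higher and 3388 to 3960 lower, with 129 to 138 higher and 70 to 80 lower at gained baits and 56 to 64 higher and 220 to 273 lower at lost baits. Same-numbered 0h and 48h libraries correlated at 0.166, 0.0771 and 0.387 in their deviations from the group means, so the numbers were not taken as pairs. With the replicate block 2214 genes were higher and 3810 lower. Of 1053 values of 71 named genes, 993 kept their direction and call, 30 lost the call, 6 gained it and 24 turned direction, all of them of genes that were not called. With a pseudocount of 1, Itgax (0.95) and Ccl7 (0.83) did not reach the fold limit, and Cox6b1 was not called after median-of-ratios scaling (-0.65) or without 48h replicate 2 (-0.95). Under median-of-ratios scaling and, next to it, with TPM rescaled to leave out the 20 most abundant genes, the log2 fold change of Wapl was 0.49 and 0.30, of 1110019D14Rik 0.23 and 0.11, of Tbce 0.42 and 0.23 and of Mapk11 0.41 and 0.23. Over the libraries left out it ran from -0.22 to 0.14 for Wapl, -0.07 to 0.29 for 2610001J05Rik, -0.45 to 0.14 for 1110019D14Rik, -0.16 to 0.22 for Gm26890, -0.30 to 0.06 for Tbce, -0.11 to 0.29 for Bin3 and -0.19 to 0.40 for Relb. Merged lists give no replicate error, and TPM gives no depth, so small differences in either were not resolvable here.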

Other observations

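Some gene families with little or no RNA in these cells had summed pairs that differed between the times. These families were chosen after their values were seen, and no test was made. Of 668 baits of olfactory receptor genes, 29 gained (4.34%, near the 3.98% of all baits) and 2 lost (0.299%, beside 3.52%), and their summed pairs were 1801, 1684, 2107 and 2840 over the 4 times. Of the 678 genes 480 were at 0 TPM at both 0h and 48h, and none had a mean above 2.31 TPM at either time. Only 47 were tested, of which 16 were higher and 1 lower (29 and 1 after scaling). A gene at 0 TPM at 0h could pass the filter only through later libraries, which partly fixed this split. Among all genes tested 13.5% were higher and 23.1% lower (21.5% and 15.8% after scaling). In the window from 89000001 to 90000000 of chromosome 2, 10 of 36 baits gained, each of them of an olfactory receptor, with 152, 51, 115 and 383 pairs over the 4 times. Few olfactory receptor baits had the 10 pairs at 0h that a loss needs. Kallikrein baits, of serine protease genes, had 25, 56, 104 and 102 pairs, and 12 of their 15 genes were at 0 TPM. Keratin baits had their highest sums at 1h and 12h, with 286, 619, 662 and 361 pairs.

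Some gene families had values on both readouts. These families too were chosen after their values were seen, and no test was made across them. Of 18 baits of Ifi genes 6 gained (33.3%, against 3.98% of all baits) and none lost, with 115 pairs at 0h and 244 at 48h. In RNA, 16 of 17 Ifi genes tested were higher, against 13.5% of all genes tested. Members at 0 TPM at 0h, such as Ifi202b, passed the filter only through later libraries, which partly fixed this share. Of 6 baits of guanylate-binding proteins, GTPases that attack the vacuoles of pathogens, 3 gained (50%, against 3.98%), with 67 and 155 pairs. All 5 of their genes tested were higher, against the same 13.5%. Stat2, Isg15 and Oasl1, also interferon-related, lay at lost baits, with 26, 20 and 52 pairs at 0h and 5, 9 and 9 at 48h. On chromosome 5 between 92000001 and 93000000, where Cxcl9 and Cxcl10 lie, 6 of 19 baits gained, and the pairs were 62, 88, 212 and 219. Ribosomal protein genes went the other way, with 9 of 90 baits lost (10%, against 3.52% of all baits) and none gained, and 1229 pairs at 0h and 937 at 48h. In RNA, 72 of 75 were lower (against 23.1% of all genes tested), and 50 after median-of-ratios scaling (against 15.8%). Histone cluster 1 had 39 of 39 tested genes lower (against 23.1%), also after scaling (against 15.8%). Its baits had 434, 312, 251 and 340 pairs, and 1 of 25 was lost (4%, near the 3.52% of all baits). Histone genes have near-identical copies, so their RNA values are uncertain.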
